A study of Mus musculus with 3 samples.

Results

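In RNA of male germ cells, 10 genes were examined that oocytes use and most other cells do not: Zp1, Zp2, Zp3, Gdf9, Bmp15, Figla, Nobox, Npm2, Zar1 and Mos. They were chosen by name, as genes of the female germline to be read beside genes of the male one, by a rule that uses no measured value, although earlier results of these data were known when it was set. All 10 were found by the symbols of the platform annotation, among 19938 named genes, through 11 probe sets, of which Zar1 had 2. The study consisted of 3 replicate arrays of 1 group, with no control group. By their labels the cells were spermatids, which are haploid germ cells of the male, taken from testes of wild-type BALB/c male mice aged 30 days. According to the protocols, tubules were minced and homogenised, the suspension was strained, and no step selecting one cell type was described. Total RNA of 200 ng per sample was hybridised to the Affymetrix Mouse Gene 1.0 ST array, and nothing states that the replicates came from different animals, so SDs may be technical.

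Oocytes and spermatids descend from the same primordial germ cells and share the machinery of meiosis, but each then runs a programme of its own. The oocyte grows, surrounds itself with a glycoprotein coat (the zona pellucida), signals to the follicle cells around it, and stores RNA and protein for the embryo. FIGLA, a basic helix-loop-helix factor, activates the zona genes through E-boxes, and NOBOX, a homeodomain factor, activates Gdf9 and other oocyte genes.

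The E-box is the sequence CANNTG, to which FIGLA and other factors of its class bind. The promoters of 3 of these genes are shown because they stand for the zona, the secreted ligands and the stored maternal factors. Each is the 250 bases before the gene's start in RefSeq, build GRCm38.p6, written 5′ to 3′ on the strand of the gene, with E-boxes in capitals. The Zp3 promoter is chr5:135979855-135980104 on the plus strand, that of Bmp15 is chrX:6320725-6320974 on the minus strand, and that of Zar1 is chr5:72581085-72581334 on the minus strand.
Zp3: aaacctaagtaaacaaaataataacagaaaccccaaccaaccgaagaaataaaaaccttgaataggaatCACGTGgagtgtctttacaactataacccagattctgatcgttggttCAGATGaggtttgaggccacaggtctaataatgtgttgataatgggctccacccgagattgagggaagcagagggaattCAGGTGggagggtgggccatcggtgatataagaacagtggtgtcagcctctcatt
Bmp15: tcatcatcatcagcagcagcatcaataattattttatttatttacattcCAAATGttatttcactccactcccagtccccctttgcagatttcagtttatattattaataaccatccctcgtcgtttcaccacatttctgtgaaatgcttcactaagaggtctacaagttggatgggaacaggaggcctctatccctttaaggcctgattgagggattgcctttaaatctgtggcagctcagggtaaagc
Zar1: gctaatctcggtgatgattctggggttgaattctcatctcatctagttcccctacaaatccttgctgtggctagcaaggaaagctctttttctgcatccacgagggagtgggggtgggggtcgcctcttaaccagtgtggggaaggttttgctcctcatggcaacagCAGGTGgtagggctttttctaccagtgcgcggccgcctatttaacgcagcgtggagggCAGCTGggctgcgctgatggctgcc
RefSeq promoters were at hand for 5 of the 10 genes, these 3 with Figla and Nobox. All 5 held an E-box, 3 matches in Zp3, 2 each in Zar1, Figla and Nobox and 1 in Bmp15. The E-box closest to the start lay 25 bases before it in Zar1, 50 in Nobox and 55 in Zp3, counted from the first base of the match, and 164 and 201 bases before it in Figla and Bmp15. An E-box was present in 66.22% of all 32851 RefSeq promoters of this length, so its presence does not set these genes apart. Of the NOBOX elements, TAATTG was in none of the 5 and in 7.17% of all promoters, and TAATTA was in Bmp15 and in 4.84% of all. The cyclic AMP response element TGACGTCA, which CREM binds in spermatids, was in none of the 5 and in 1.55% of all. Both strands were searched, and each motif apart from TAATTG reads the same on either strand. TAATTG and TAATTA differ only in their last base, but no stretch can match more than 1 of the motifs in full. A promoter can hold several of them, as that of Bmp15 does, and a match of letters is not a bound site.

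None of the 10 oocyte genes was called above the background level chosen here, although that level depends on the families pooled. Levels are RMA values, the authors' normalised signal of a probe set, on the log2 scale. As background served 211 genes of families that testis is not expected to use, the vomeronasal receptors (Vmn1r, Vmn2r) and the hair keratin associated proteins (Krtap), and their 95th percentile, 7.98, was taken as the level to pass. The 95th percentile was 6.92 for the 167 receptor genes alone and 8.68 for the 44 Krtap genes alone. The means of Zar1, Gdf9, Mos and Npm2 lay above 6.92, and those of the other oocyte genes below it. No test against either family alone was run. A gene was called when its mean exceeded that level at 0.05 in limma's test (one-sided, Benjamini-Hochberg adjusted over the whole table). By this rule 36.6% of all genes were called, and 0 of the 10 oocyte genes, each with an adjusted p of 1.0 (limma). No oocyte gene had an unadjusted p under 0.05 in limma, and none of their gene values, which for Zar1 are medians of 2 probe sets, lay above the level on any array. The median level of the 10 genes was 6.59, against 7.45 for all genes, and it was 6.57, 6.69 and 6.52 on replicates 1, 2 and 3. All 10 nevertheless lay above the median of the background families, 4.77, on every array. Probes differ in how strongly they bind, and a value between these marks does not separate a little RNA from none. At the family median as the level, 94.3% of all genes were called, and at the 99th percentile of the families 19.3%. In RNA of a cell mixture, fewer cells of a type and less RNA per cell cannot be told apart.

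**Figure D1:**
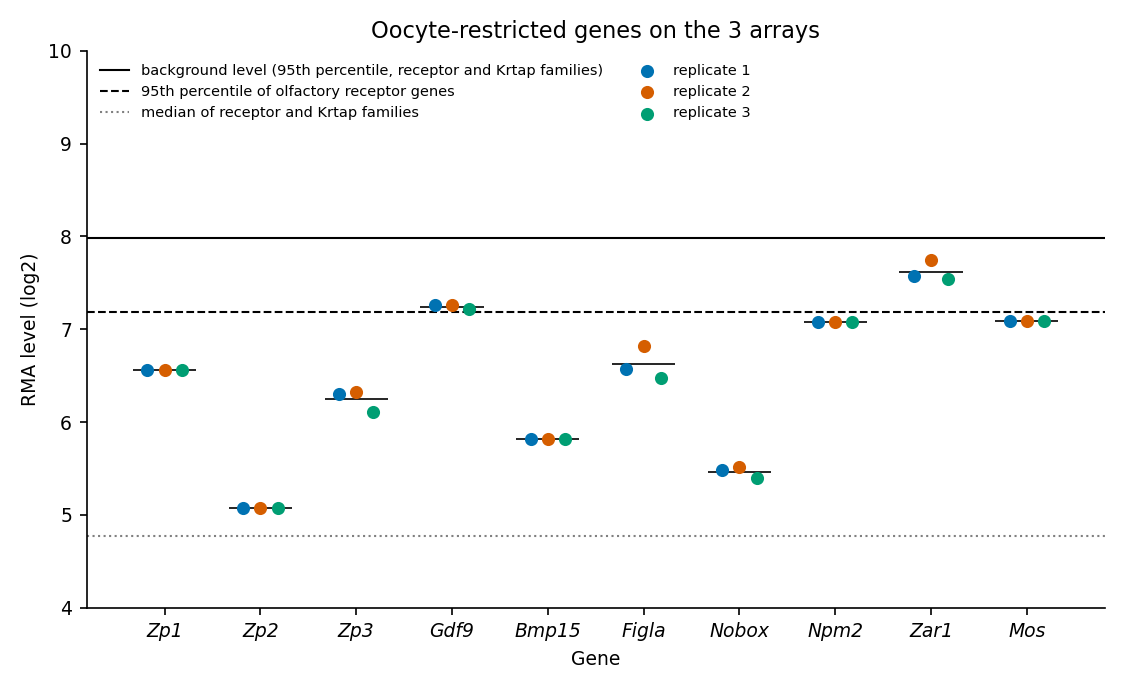
RMA level (log2) of the 10 oocyte genes on each of the 3 arrays (coloured points), with the mean of each gene as a short bar and 3 background marks as lines. Every point lies below the background level of 7.98, and Zar1 and Gdf9 alone lie above the 95th percentile of the olfactory receptor genes, 7.18.

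The zona pellucida genes encode the coat glycoproteins of the egg. Zp1, whose product cross-links the zona filaments, read 6.57 on each of the 3 arrays. Zp2, the zona protein that sperm bind, read 5.07 on each array and was the lowest of the 10 genes, with 7.38% of all genes below it. Zp3, the partner of ZP2 in the filaments, read 6.30, 6.32 and 6.11 on replicates 1, 2 and 3, a mean of 6.25 ± 0.12 (SD, n = 3). Replicate 3 was the low one for Zp3, and the mean was -1.74 from the background level, far more than the spread between arrays. Of the background family genes, 85.3% lay below Zp1, 59.2% below Zp2 and 82.9% below Zp3. Zp2 sat nearest to the middle of those families.

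The secreted ligands Gdf9 and Bmp15 are growth factors of the TGF-beta family with which the oocyte steers granulosa cells. Gdf9 read 7.26 on replicates 1 and 2 and 7.21 on replicate 3, a mean of 7.24 ± 0.03 (n = 3). With 44.9% of all genes below it, it stood close to the middle of the array. Bmp15, an X-linked gene, read 5.82 on each array, with 14.2% of all genes below it. Against the lower mark of 7.18, the 95th percentile of 1027 olfactory receptor genes, Gdf9 was called (adjusted p = 0.0353, limma, 0.06 above the mark). By that mark 55% of all genes were called, and 2 of the 10 oocyte genes, Gdf9 and Zar1.

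The transcription factor genes were low as well. Figla read 6.57, 6.82 and 6.48 on replicates 1, 2 and 3, a mean of 6.62 ± 0.18 (n = 3), the widest spread among the 10 genes. Nobox read 5.48, 5.52 and 5.40, a mean of 5.47 ± 0.06, and 10.4% of all genes lay below it. Replicate 2 gave the highest value and replicate 3 the lowest for both factors, and for Zp3 and Zar1 too. Among all 5998 genes that lay below background and were not tied, 62.0% were highest on replicate 2 alone, so these oocyte genes lay with the majority of low genes on that array. Among the 4767 such genes above background, 58.3% were lowest on replicate 2 alone.

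The maternal factors Npm2 and Zar1 serve the egg and the early embryo. Npm2, a nucleoplasmin that binds histones in the egg, read 7.08 on each array, with 40.3% of all genes below it. Zar1, an RNA-binding protein of the oocyte, read 7.57, 7.75 and 7.54 on replicates 1, 2 and 3 as the median of its 2 probe sets, a mean of 7.62 ± 0.11 (n = 3). It was the highest of the 10 genes, the 1 among them with a mean above the median of all genes, and -0.36 from background. Its probe sets disagreed by more than the arrays did. One read 7.92, 8.12 and 7.87, a mean of 7.97 ± 0.13, and the other 7.22, 7.37 and 7.22, a mean of 7.27 ± 0.09. The brighter probe set exceeded the background level on replicate 2 alone, and with the highest probe set as each gene's value, by which 37.3% of all genes were called, Zar1 was still not called. Against the olfactory receptor mark Zar1 was called (adjusted p = 0.0119, limma, 0.44 above it).

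Mos encodes the kinase that switches on the MAP kinase cascade and holds the egg at the second meiotic metaphase. Transcripts of Mos are known from testis as well as ovary. Here Mos read 7.09 on each array, with 40.6% of all genes and 91.5% of the background family genes below it. Its level was -0.89 from background.

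Among the oocyte genes, Zp1, Zp2, Bmp15, Npm2 and Mos carried exactly the same value on all 3 arrays, as did 46.0% of all genes. Values also recur between probe sets, and 22366 distinct values stood for 35556 probe sets on replicate 1. The value of Mos there was shared by 48 other probe sets, that of Npm2 by 38, that of Bmp15 by 12, that of Zp1 by 5 and that of Zp2 by 4. An SD of 0 is therefore a property of the deposited table and no measure of error. Among the 5 untied genes the median SD was 0.11, and no order of expression among the 10 genes is read from their levels, which come from different probe sets below background.

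**Figure D2:**
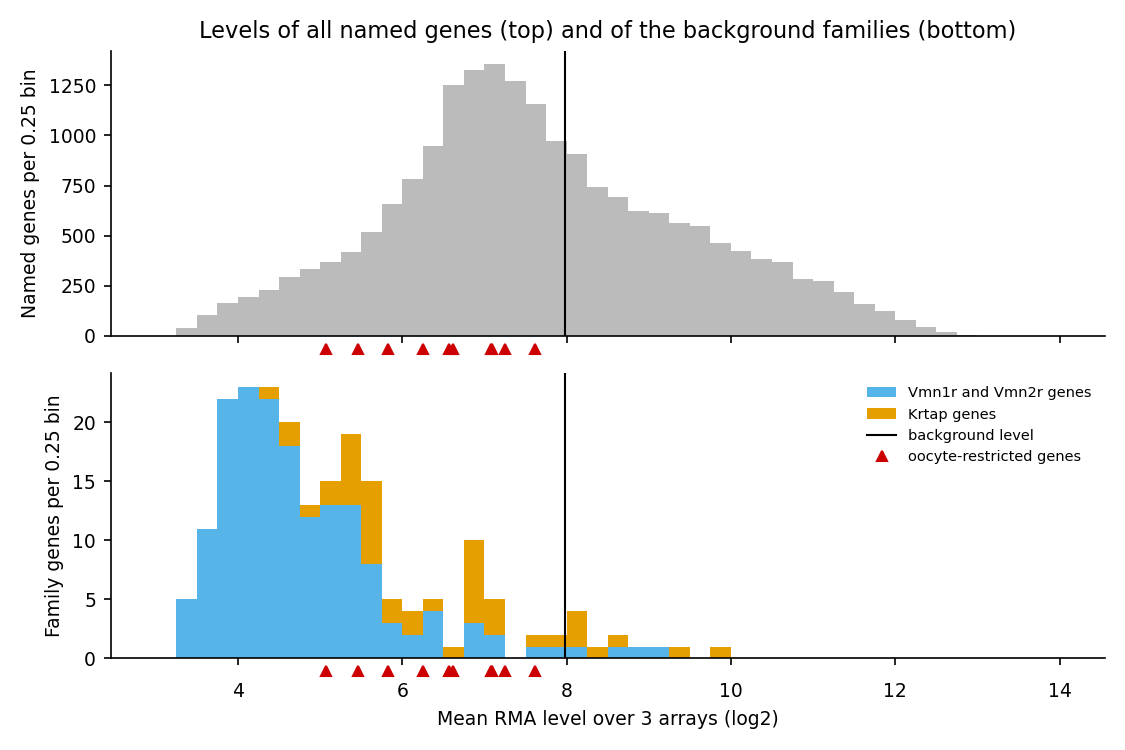
Number of named genes (top) and of background family genes (bottom) per 0.25 of mean RMA level (log2). Triangles mark the 10 oocyte genes, which run from 5.07 to 7.62, left of the background level of 7.98 and over the upper part of the background families.

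Other oocyte and egg genes gave a like picture. This list held genes of the subcortical maternal complex, NLR family genes, oocyte secreted proteins and other egg factors, and 31 of 32 were measured. Their median was 5.41, and 2 of 31 (6.45%) were above background, against 36.6% of all genes. Nlrp14, an NLR family gene, read 8.18, 8.17 and 8.35, a mean of 8.23 ± 0.10 (n = 3; adjusted p = 0.0448, limma). Its call was lost without replicate 1 (adjusted p = 0.181, limma) and without replicate 2 (adjusted p = 0.19, limma). Btg4, an adaptor for the decay of maternal RNA, read 8.05 on each array (adjusted p = 4.89e-08, limma), only 0.06 above the level, and that p rests on tied values. Neither was called at the 99th percentile of the families or with probe sets of several genes added. The next were Zbed3 at 7.82 on each array and Ooep at 7.74 ± 0.04, both of the subcortical maternal complex, and neither was called. Nlrp9c was lowest at 4.23. Izumo1r, the egg's receptor for the sperm protein IZUMO1, was at 6.57 ± 0.04, and the linker histone of the egg, H1f8, at 6.14 ± 0.05.

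Genes of other tissues occupied the same range. Of 18 measured, which included Alb of liver, Ins2 of pancreas, Ckm of muscle and Gfap of brain, 0 were called, against 36.6% of all genes. They ran from Crygd of lens at 4.28 to Cryaa of lens at 7.87. Their median was 6.46, beside 6.59 for the oocyte genes, and all 10 oocyte genes fell inside their range. At an unadjusted p under 0.05 in limma, 0 of the 18 passed as well.

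Genes that both germlines use were mostly above background. Of 20 such genes 16 (80.0%) were called, against 36.6% of all genes, and their median level was 10.13. As probes of different genes bind differently, this count is of genes above a common level and does not measure how much more RNA they gave. Mael, a piRNA factor, was highest at 12.36 ± 0.09 (n = 3), Ddx4, a germ cell RNA helicase, was at 12.01 ± 0.13, and the synaptonemal complex gene Sycp3 at 11.29 ± 0.19. Not called were Cpeb1, which controls stored RNA in oocytes, at 8.02 ± 0.03, the recombination gene Msh5 at 7.26 ± 0.03, the early germ cell regulator Sohlh1 at 7.14 ± 0.02 and the meiotic entry gene Stra8 at 6.71 on each array.

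Genes of the male germline were read stage by stage, beside the 36.6% called among all genes. Of 20 round spermatid genes 18 were called, with a median of 10.99, from Tssk6 at 7.43 ± 0.10 to Pgk2 at 12.34 ± 0.08. All 17 pachytene spermatocyte genes were called, with a median of 10.92, from Aurkc at 8.18 to Ldhc at 12.92 ± 0.06. These counts do not tell the labelled spermatids apart from spermatocytes, and Pgk2 stands in both lists. Of 20 spermatogonia genes 4 (20.0%) were called, a smaller share than among all genes, with a median of 7.57, from Cdh1 at 6.34 to Dmrtb1 at 8.86 ± 0.03. Sperm genes for binding and fusing with the egg had a median of 11.22, with 16 of 17 called and Crisp2, a gene of the acrosome, highest at 12.51 ± 0.15. Among them Zp3r, whose product was named for binding ZP3, read 11.46, 11.44 and 11.57, and Zpbp and Zpbp2, zona binding proteins of the acrosome, were at 10.54 on each array and 11.58 ± 0.03. Izumo1 was at 10.68 ± 0.01. Zan, the zonadhesin gene, was the 1 gene of this sperm list not called, at 7.61, while of their counterparts on the egg Zp1, Zp2, Zp3 and Izumo1r were all below background. These medians belong to different genes, a few genes stand in more than 1 list, and no test of one list against another was made.

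**Figure D3:**
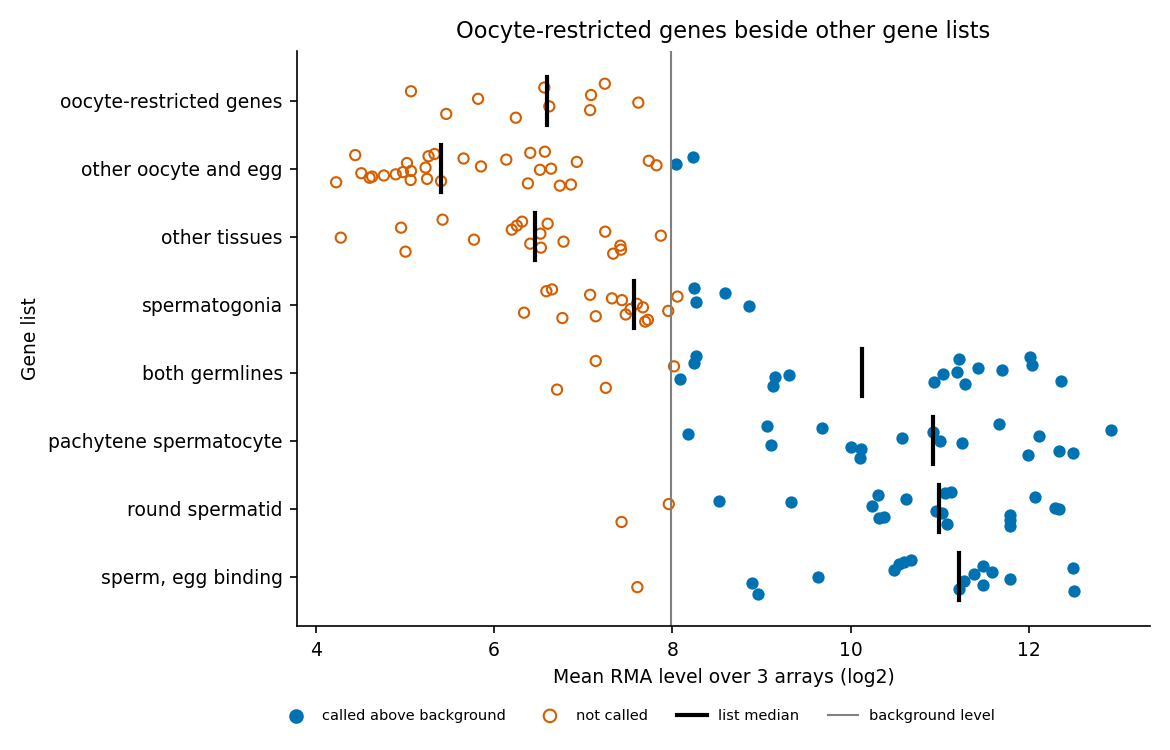
Mean RMA level (log2) over 3 arrays of each gene in 8 lists, filled where called above background and open where not, with the list median as a bar. The oocyte genes and the genes of other tissues lie wholly left of the background level of 7.98, and the list medians run from 5.41 to 11.22.

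Genes of somatic testis cells were also measured, and these counts too stand beside 36.6% called among all genes. Of Leydig cell genes 8 of 10 were called, from Sult1e1 at 7.58 ± 0.18, not called, to the steroid synthesis gene Cyp17a1 at 11.36 ± 0.06. Those called also included Hsd3b6 at 11.27 ± 0.15, Hsd17b3 at 10.39, Cyp11a1 at 10.02 ± 0.11 and Star at 9.98 ± 0.13. The steroidogenic regulator Nr5a1 was not called at 7.69. Of Sertoli cell genes 11 of 19 were called, from Amh at 5.91, not called, to Cst12 at 11.81 ± 0.04. Other Sertoli genes differed. Ctsl at 11.37 ± 0.01, Defb19 at 11.31, Clu at 11.24 and Wt1 at 9.21 ± 0.05 were among those called. Sox9 at 7.91 ± 0.01, Gata1 at 7.50 and Dhh at 6.98 were among those not called. What part such cells have in the levels of the oocyte genes was not tested. Granulosa cells, the ovarian partners of the oocyte, were represented by 11 measured genes, and 3 (27.3%) were called, a share not far from that of all genes: Inha at 8.62, Fshr at 8.47 and Amhr2 at 8.09, all of which the testis also uses. The lowest was Nr5a2 at 5.58. Foxl2, the defining factor of granulosa cells, was at 7.22 ± 0.15 and not called.

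Genes that act with the oocyte genes, or resemble them, were counted role by role beside the 36.6% called among all genes. Beside the zona genes, 0 of 9 other genes with a ZP domain were called, with a median of 6.16, from Gp2 at 5.11 ± 0.14 to Cuzd1. At an unadjusted p under 0.05 in limma 0 of the 9 passed, and 1, Cuzd1, had a mean above the level. Cuzd1 read 7.64, 8.30 and 9.45 on replicates 1, 2 and 3, a spread of 0.92 (SD) that no oocyte gene approached.

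Of 13 genes, those of receptors and SMAD proteins that answer GDF9 and BMP15 together with Furin, 8 were called. The type II receptor gene Bmpr2 was at 9.78 ± 0.06, the GDF9 receptor gene Tgfbr1 at 9.27, and the transducers Smad2 and Smad4 at 9.40 and 9.51 ± 0.01. Acvr2a, an activin receptor gene, was highest at 10.76 ± 0.07, and Bmpr1a at 9.50, Smad5 at 8.49 and Smad1 at 8.06 ± 0.03 were called too. Bmpr1b, the type I receptor gene for BMP15, was lowest at 5.69 ± 0.03 and not called. Smad3 at 7.47 ± 0.06, Smad9 at 7.41, Furin at 7.31 and Acvr1b at 7.13 were not called either. Some receptor genes for these ligands were above background in RNA where Gdf9 and Bmp15 were not called.

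Of 8 genes of FIGLA and NOBOX partners and related factors 4 were called, a share not far from that of all genes. These were Tcf12 at 8.69 ± 0.06, Foxo3 at 8.38, Sohlh2 at 8.27 and Tcf4 at 8.19. Tcf3, whose E12 protein pairs with FIGLA on the zona promoters, was at 7.63 and Lhx8, another homeodomain factor of the oocyte, at 6.86 ± 0.08, neither called.

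Of 8 measured genes around MOS 5 were called. Fbxo43, also known as Emi2, which keeps the egg arrested, was highest at 10.46 ± 0.08, ahead of Cdc20 at 9.34 ± 0.03, Cdk1 at 8.45, Map2k2, a kinase of the MOS cascade, at 8.45 and Rps6ka3 at 8.40 ± 0.05. Map2k1, the other MAP kinase kinase of the cascade, was at 7.58 and Wee2, the oocyte WEE kinase, at 6.52, neither called. Among relatives of the maternal factors, Npm1, the nucleoplasmin of all cells, was at 11.57 ± 0.10 and called, and Zar1l, the paralog of Zar1, was at 5.23 and not called.

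**Figure D4:**
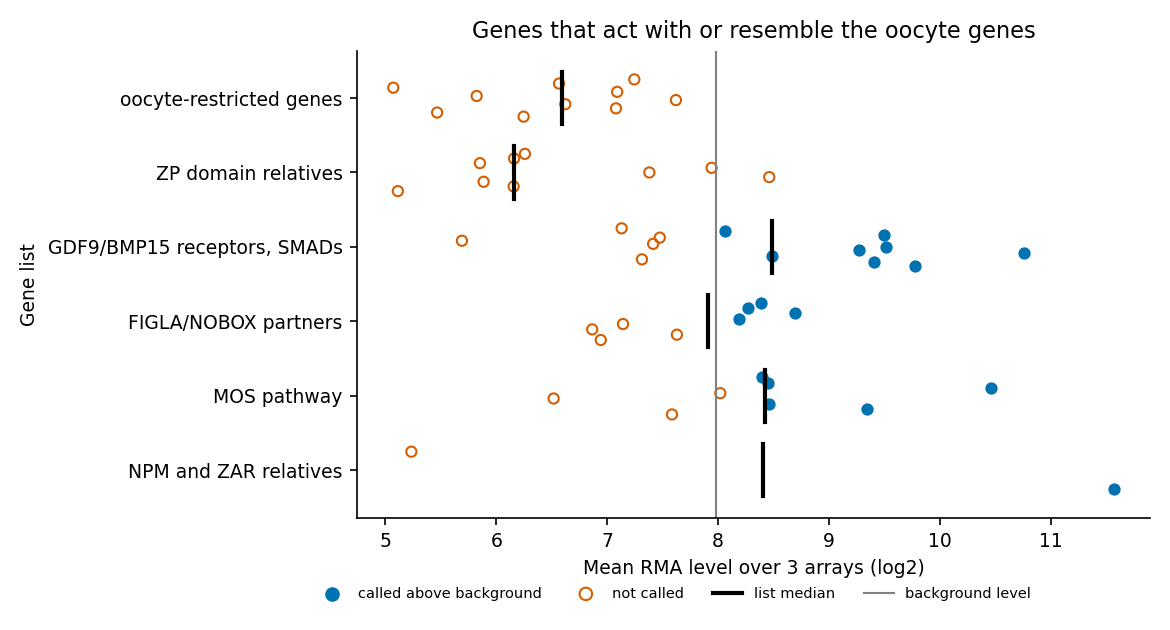
Mean RMA level (log2) over 3 arrays of the oocyte genes and of genes that act with or resemble them, filled where called above background and open where not, with list medians as bars. The ZP domain relatives are all open like the oocyte genes, while the receptor, partner and MOS pathway lists hold called genes, up to Acvr2a at 10.76 and Fbxo43 at 10.46, and Npm1 lies at 11.57.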

How the data were processed

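The authors deposited 1 table of log2 levels for 35556 probe sets on 3 arrays. Per the series' design text they were made by Robust Multichip Average with Affymetrix Power Tools and mm9 annotation (software version: not given in the sources used here). Column medians were 7.17, 7.20 and 7.17, the values were not centred, and each pair of arrays had a Pearson's r of at least 0.992 across probe sets, which are not independent replicates. Probe sets were named through the platform annotation, 1 gene for 21789, several for 1621 and none for 12146. An update by Entrez identifier to GRCm38.p6, which matched 21698, changed no symbol. Probe sets naming only 1 gene were summarised by their median for each gene. The mean level was tested against the background level with limma 3.58.1 in R 4.3.3, one-sided, with empirical Bayes variances whose prior had 0.267 degrees of freedom, and Benjamini-Hochberg adjustment over 19938 genes. Tied genes made up 2844 of 7295 calls, and for them the test only asks whether the level lies above background. An exact test of 3 values cannot give a one-sided p below 0.125. The function was tested on simulated data that held no tied genes, so that trial does not cover calls of tied genes. The text names all 10 oocyte genes, the called genes of the oocyte list and the partner lists, and the highest and lowest of each list; other genes named were chosen after their values were seen. The members and lists were chosen with earlier results of these data known. The number of arrays limits the precision.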

Additional observations from a re-analysis of the deposited data

How the results depend on the processing

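The 10 oocyte genes stayed uncalled under every alternative run except the olfactory receptor mark and the family median. Several runs could not have called them, as the means stayed unchanged below a level kept or raised. These were the higher percentile, the symbols without the update, the calls by level without a test and the probe sets of several genes added. The prior from untied genes and the filter on low values were others. Choosing the highest probe set could change Zar1 alone. With the olfactory receptor mark, by which 55% of all genes were called, 2 were called, Gdf9, at 0.062 above it, and Zar1, at 0.44. With the family median as the level 10 were called, but so were 94.3% of all genes, so this count does not set the oocyte genes apart. Zp1 was 1.79 above that level, Zp2 0.30, Zp3 1.47, Gdf9 2.47, Bmp15 1.05, Figla 1.85, Nobox 0.69, Npm2 2.31, Zar1 2.85 and Mos 2.32. Of the 126 values of single oocyte genes under alternatives, 12 turned direction under these 2 marks. The 126 include the runs that could not change a call, so this share does not measure robustness. With the prior from untied genes 5 of the 10 genes were tested, and with the filter on low values 1. Without 1 replicate each, the count was 0.

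The count of 2 among other oocyte and egg genes became 0 at the 99th percentile (Nlrp14 -0.93 and Btg4 -1.12 from the level), 0 with probe sets of several genes added (-0.092 and -0.28), 4 with olfactory receptors, 25 at the family median and 1 with the prior from untied genes. Leaving out 1 replicate gave 1 to 2. The 104 of 181 genes called in the other lists became 74 at the 99th percentile, 138 with olfactory receptors, 180 at the family median, 74 of 112 tested with the prior from untied genes and 99 to 107 without 1 replicate. The prior from untied genes tested no tied gene. Aside from it and the family median, spermatogonia counts were 0 to 14, Sertoli 6 to 15 and granulosa 0 to 5. Other tissues gave 0 to 4, receptors and SMADs 6 to 11, MOS pathway 2 to 7 and FIGLA and NOBOX partners 0 to 5. ZP domain relatives gave 0 to 2, sperm genes of egg binding 13 to 17 and genes of both germlines 11 to 18. At the 99th percentile 19.3% of all genes were called. Leaving 4 receptor pseudogenes out of the families, chosen after seeing the data, lowered the level to 7.64. By it 43.6% of all genes and 0 oocyte genes were called. Zar1 was then -0.025 from the level. Beyond the alternatives' own construction (a lower or higher level, fewer genes tested), the cause was not tested. No paired analysis was possible because the study has 1 group.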
